A study of Mus musculus with 15 samples.

Results

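Interferon-stimulated genes of mouse liver were examined in 15 mice: 37 genes whose expression is known to be induced by interferons, taken by their gene symbols. The list was drawn up with earlier results of these data known. They are 37 of 55573 genes in the table of counts. All 37 passed the filter on low counts, which kept 17655 genes. The mice were homozygous *Esr1* knockout mice (ESR1KO) of the strain B6N(Cg)-Esr1tm4.2Ksk/J and WT controls, which the series calls littermates. All were 8 weeks old. The groups were 3 WT females (FWT), 3 WT males (MWT), 5 ESR1KO females (FKO) and 4 ESR1KO males (MKO), with 1 library of whole liver per mouse. The knockout is a deletion of exon 3 of *Esr1*, the gene for estrogen receptor alpha, in every tissue. According to the study's description the ESR1KO mice of both sexes are infertile and have raised testosterone, so that loss of the receptor in liver cannot be told apart from altered hormones. The study asked which sex differences of the liver depend on the receptor. Accordingly, females were compared with males within each genotype, and ESR1KO with WT mice within each sex.

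Type I interferons (IFN-α and IFN-β) and type III interferons act through receptors that lead to binding of a complex with STAT2 and IRF9 at the interferon-stimulated response element (ISRE) near their target genes. IFN-γ, the type II interferon, acts through its own receptor and the gamma-activated sequence (GAS). The induced genes encode sensors of foreign RNA, transcription factors that extend the response, effectors that block viral replication, GTPases that act on pathogen vacuoles, and chemokines. In uninfected liver a low basal level of these genes is maintained, in hepatocytes and in immune cells such as Kupffer cells, the resident macrophages.

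The genotype labels were checked by *Esr1* itself. Its CPM (counts scaled to library size by TMM) ranged from 74.7 to 88.2 in FWT (median 82.8), from 25.0 to 52.0 in MWT (median 31.2), from 9.67 to 19.7 in FKO (median 11.7) and from 8.22 to 16.1 in MKO (median 11.5), so that every ESR1KO mouse was below every WT mouse. Reads from the exons that remain are still counted. Total counts lay between 27799061 and 78624766 per mouse. The lowest count of a member in any mouse was 42, apart from *Ifit1bl1* with 3 to 46 counts. Counting error weighs most on the members with such low counts. The mouse FKO1 stood apart over the whole table, with the highest of the 15 values in 21.4% of genes tested and the lowest in 19.0%. Over the members it was the highest in 0 and the lowest in 1. The 5 hepatocyte markers were abundant in every mouse. Their summed CPM was 99900 to 107000 in FWT, 74000 to 76000 in MWT, 81400 to 105000 in FKO and 86100 to 95000 in MKO. Most of the sum was *Alb*, with means of 86400 CPM in FWT, 54600 in MWT, 74500 in FKO and 72300 in MKO. The means of *Cps1*, *Apoa1*, *Ttr* and *Serpina1a* were instead lower in females than in males of each genotype. In whole liver, fewer cells of a type and less RNA per cell cannot be told apart.

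The promoters of the members were read from the RefSeq table of windows of equal length, most of each lying upstream of a start site (build GRCm38.p6), which held 29 of the 37 members. The ISRE core was searched as GAAA, any 2 bases, GAAA, and the GAS core as TTC, any 3 bases, GAA, both on either strand; the windows of 19 of 29 members (65.517%) held an ISRE core, beside 3.993% of the 27025 genes of the table. A GAS core was in 5 of 29 (17.241%), beside 9.554% of all genes. Of the members called higher in females in the average of both genotypes, 12 of the 15 in the table held an ISRE core, and of the members not called, 7 of 14. A GAS core was in 3 of the 15 and in 2 of the 14. *Ifit3* and *Ifit3b*, whose stretches below are equal, were counted separately, and the difference between called and other members was not tested. These matches are descriptions of letters and not binding sites. The following stretches are shown for the genes with the largest sex difference (*Gbp3*, *Igtp*, *Ifit1bl1* and *Ifit1*), for the near-identical pairs *Ifit3* and *Ifit3b* and *Oas1a* and *Oas1g*, and for *Isg15* and *Stat2*, which were not called. They lie upstream of the RefSeq start sites and are written 5′ to 3′ on the strand of the gene, with the ISRE core in capitals (TTTC, any 2 bases, TTTC where it lies on the other strand).
Gbp3: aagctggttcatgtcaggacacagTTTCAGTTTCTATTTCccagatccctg
Igtp: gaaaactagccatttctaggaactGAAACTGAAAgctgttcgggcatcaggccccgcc
Ifit1: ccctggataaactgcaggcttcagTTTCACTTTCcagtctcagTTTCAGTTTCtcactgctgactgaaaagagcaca
Ifit3: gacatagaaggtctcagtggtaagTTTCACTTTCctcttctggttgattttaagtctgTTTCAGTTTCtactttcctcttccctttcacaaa
Ifit3b: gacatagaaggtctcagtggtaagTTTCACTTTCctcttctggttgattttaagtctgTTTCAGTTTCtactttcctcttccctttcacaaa
Ifit1bl1: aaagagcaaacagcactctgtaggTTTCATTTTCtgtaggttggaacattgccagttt
Oas1a: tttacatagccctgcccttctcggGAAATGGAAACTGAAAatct
Oas1g: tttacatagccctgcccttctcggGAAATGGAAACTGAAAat
Isg15: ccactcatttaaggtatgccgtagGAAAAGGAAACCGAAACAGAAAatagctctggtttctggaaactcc
Stat2: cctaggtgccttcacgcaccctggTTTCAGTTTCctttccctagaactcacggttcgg

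The stretch of *Gbp3* is at chr3:142559975-142560025, plus strand, that of *Igtp* at chr11:58199498-58199555, plus strand, and that of *Ifit1* at chr19:34640761-34640837, plus strand. *Ifit3* was read at chr19:34583349-34583440, plus strand, *Ifit3b* at chr19:34607745-34607836, plus strand, and *Ifit1bl1* at chr19:34602039-34602096, minus strand. *Oas1a* was read at chr5:120907526-120907569, minus strand, *Oas1g* at chr5:120887614-120887655, minus strand, *Isg15* at chr4:156200851-156200920, minus strand, and *Stat2* at chr10:128270252-128270309, plus strand. The stretches of *Ifit3* and *Ifit3b* were equal at 92 of 92 bases, and those of *Oas1a* and *Oas1g* at 42 of 42. In *Isg15* 3 overlapping cores follow each other, while *Igtp* and *Stat2* have a single one. Likeness extends into the transcripts. Of the 100-base stretches of *Ifit3*, 31.7% are found in any other gene, with *Ifit3b* sharing the most. Of those of *Oas1a*, 40.9% are found in any other gene, with *Oas1g* sharing the most. Reads can therefore be split between the members of each pair or lost from both. Also, 13.9% of the exon bases of *Rtp4* overlap the gene model *Gm45338* on the same strand, and 16.8% of those of *Ifi35* overlap *Gm11626* on the opposite strand, which matters where counting ignores strand.

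Levels of the members differed widely. Per kilobase of exon, the mean CPM over the 15 mice ranged from 0.257 for *Ifit1bl1* to 89.0 for *Bst2*, with a median of 3.97. *Bst2*, which encodes tetherin, was followed by *Ifi35* and *Igtp* (both 15.1 per kilobase), *Irf7* (11.8) and *Ifit3* (11.7). The members are spread over 13 autosomes but include gene clusters: the IFIT genes on chromosome 19 (from 34550694 to 34650009), the *Oas1a*, *Oas1g*, *Oas2* and *Oas3* genes on chromosome 5 (from 120730333 to 120907521), and *Gbp3* and *Gbp2* on chromosome 3 (from 142560026 to 142638008), all in GRCm38.

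**Figure D1:**
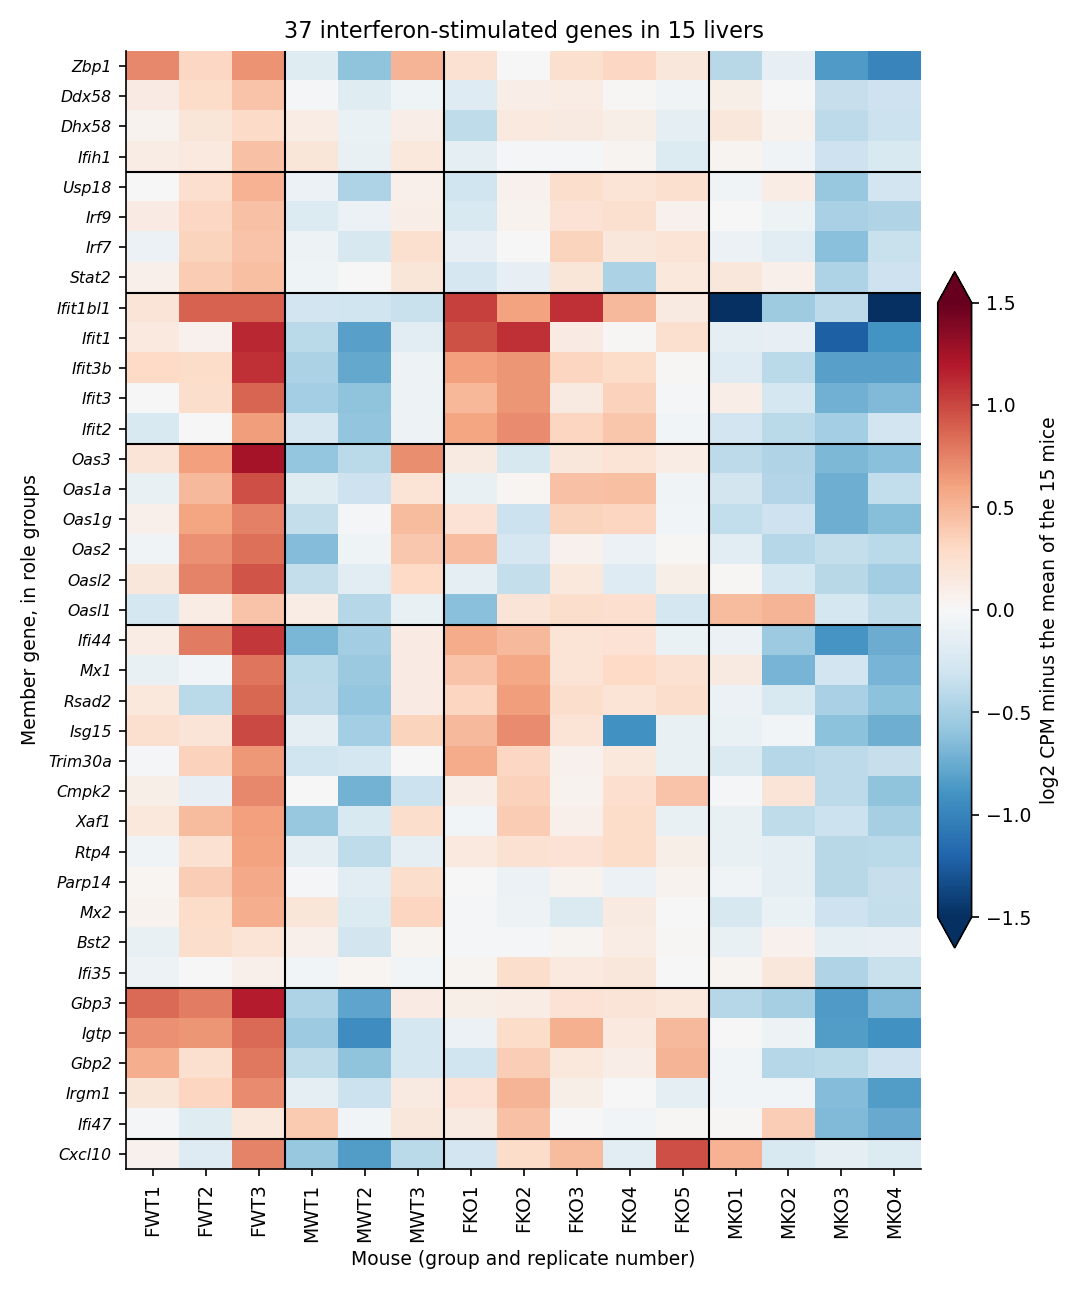
Columns are the 15 mice by group and rows are the 37 members by role; color is log2 CPM minus the mean of the 15 mice, and values beyond 1.5 in size have the darkest color. FWT3 is the highest of the 15 mice in 29 rows, and MKO3 and MKO4 are the lowest in 16 and 8 rows.

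The first question was whether the members differ between the sexes. In the average of both genotypes, all 37 log2 fold changes (females minus males) were above 0, where 52.6% of all genes tested were, and 18 members were called higher in females (edgeR's quasi-likelihood test, adjusted p under 0.05 with any fold). Over all genes tested, 3.28% were called higher in females. No member was called lower, beside 2.46% of all genes (unadjusted p under 0.05 in 0 members; DESeq2 called 0). Their median log2 fold change was 0.51, and that of all genes 0.01. The 18 members were *Ifit1*, *Ifit1bl1*, *Ifit2*, *Ifit3*, *Ifit3b*, *Oas1a*, *Oas3*, *Mx1*, *Rsad2*, *Rtp4*, *Ifi44*, *Xaf1*, *Zbp1*, *Trim30a*, *Igtp*, *Irgm1*, *Gbp2* and *Gbp3*. The count was 10 without FWT3 and 11 without MWT1.

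Within WT mice, 5 members were called higher in females (*Gbp3*, *Igtp*, *Gbp2*, *Ifit3b* and *Ifi44*), beside 2.67% of all genes, and 0 lower, beside 2.2% (0 at an unadjusted p under 0.05 and 0 by DESeq2). Estimates were above 0 for 36 of 37 members, the exception being *Ifi47* (−0.20), with a median of 0.52. Within ESR1KO mice, 2 members were called higher in females (*Ifit1bl1* and *Gbp3*), beside 0.159% of all genes, and 0 lower, beside 0.113% (0 at an unadjusted p under 0.05 and 0 by DESeq2). Again 36 of 37 estimates were above 0, the exception being *Oasl1* (−0.13), with a median of 0.46. At an unadjusted p under 0.05, 25 members were higher in WT females, beside 9.78% of all genes, and 23 in ESR1KO females, beside 9.49%. Estimates were above 0 for 52.1% of all genes in WT and 51.7% in ESR1KO mice. Every female was above every male for 12 members in WT mice, beside 14.8% of all genes, for 13 in ESR1KO mice, beside 2.56%, and for 4 over all 15 mice (*Ifit1*, *Ifit1bl1*, *Ifit3b* and *Rtp4*), beside 0.464%. The numbers of mice differ between the genotypes, which bears on both the calls and the non-overlapping counts. The 2 calls in ESR1KO mice depended on the settings: DESeq2 called 13 members (beside 1.4% of all genes), no filter on low counts gave 12, and a filter of 1 CPM in 3 libraries gave 0. Without FKO1, FKO2, MKO1 or MKO4 the count was 0, and in WT mice it was 3 without FWT3, MWT1 or MWT2.

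**Figure D2:**
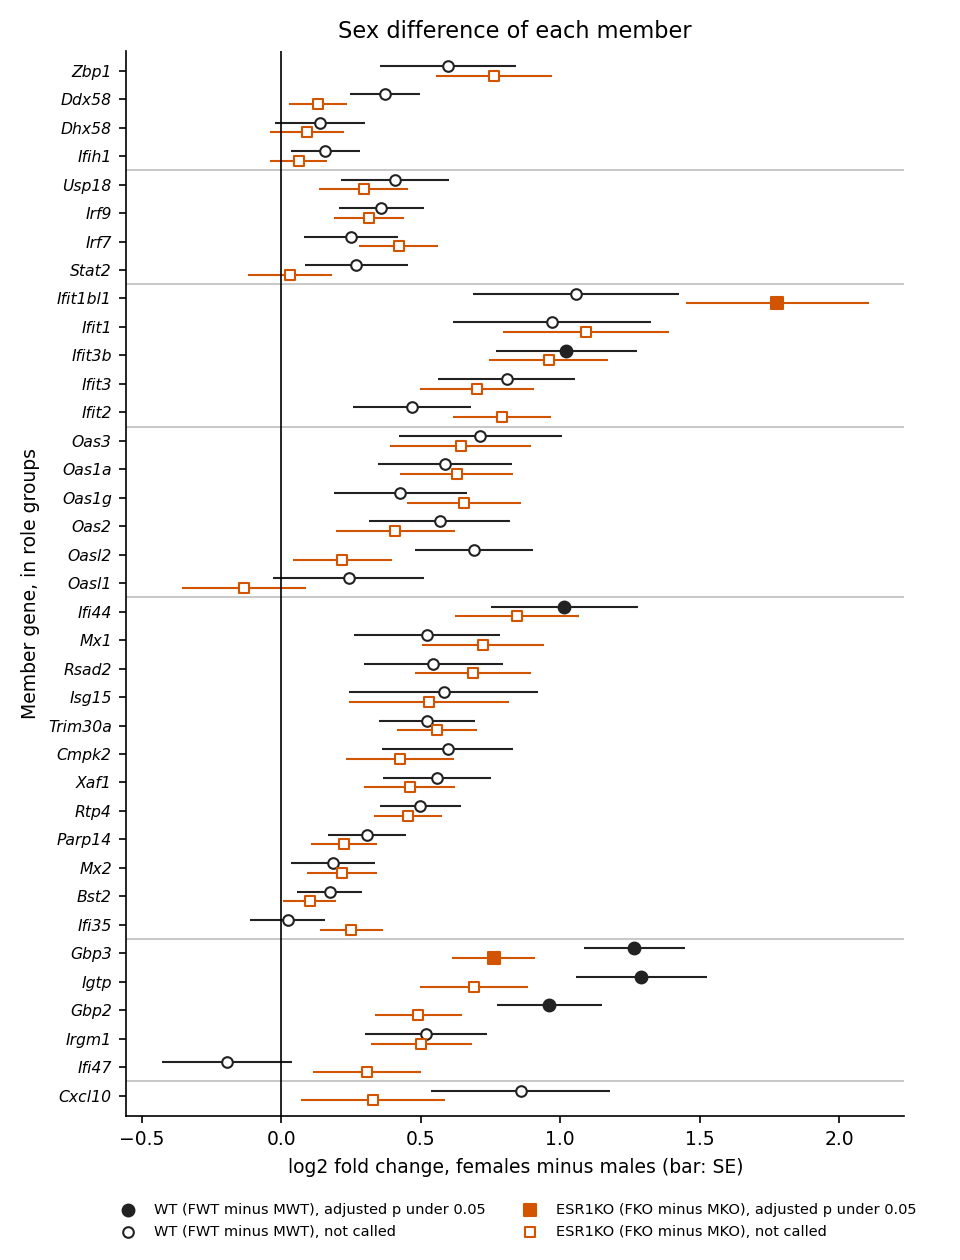
Log2 fold change of females minus males for each member, with its SE, in WT (circles) and ESR1KO mice (squares); filled symbols passed an adjusted p of 0.05. Points lie to the right of 0 for 36 of 37 members in each genotype, and the filled symbols are 5 in WT and 2 in ESR1KO mice.

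The interferon-inducible GTPases held 3 of the 5 members called within WT mice. Of the family, 4 of 5 were called higher in females in the average of both genotypes, with a median log2 fold change of 0.73. *Gbp3*, a guanylate-binding protein of the response to intracellular pathogens, was at 25.5, 24 and 32.2 CPM in FWT and at 10.3, 8.19 and 15.4 CPM in MWT. In ESR1KO mice it was at 15.1, 15.3, 16.4, 16.2 and 15.8 CPM in FKO and at 10.5, 10, 7.85 and 8.94 CPM in MKO. Females were above males without overlap in each genotype, but MWT3 reached the lower FKO mice. The log2 fold change was 1.27 ± 0.18 (SE, adjusted p = 0.000249) in WT and 0.76 ± 0.15 (adjusted p = 0.0438) in ESR1KO mice. In ESR1KO mice the call was lost when any of 11 single mice was left out, with adjusted p up to 0.163.

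*Igtp*, an immunity-related GTPase that acts on vacuoles of intracellular parasites, was at 45.4, 44.7 and 50.9 CPM in FWT and at 19.3, 14.8 and 23.5 CPM in MWT, which did not overlap. It was at 26.5, 34.2, 40.9, 31.2 and 39.4 CPM in FKO and at 28.2, 26.8, 15.8 and 15 CPM in MKO, where FKO1 lay below MKO1 and MKO2. The WT difference was 1.29 ± 0.24 (SE, log2; adjusted p = 0.00268) and the ESR1KO difference 0.69 ± 0.19 (adjusted p = 0.119). Of the exon bases of *Igtp*, 8.0% overlap *Irgm2* on the same strand. *Gbp2*, another guanylate-binding protein, was at 12.5, 10.1 and 14.8 CPM in FWT, 6.52, 5.57 and 7.06 CPM in MWT, 6.91, 11.0, 9.51, 9.09 and 12.1 CPM in FKO, and 8.28, 6.30, 6.41 and 6.88 CPM in MKO. Its WT groups did not overlap, while FKO1 lay among the MKO mice. The log2 fold change in WT was 0.96 ± 0.19 (SE, adjusted p = 0.00501). *Irgm1*, the most abundant GTPase by CPM and a regulator of the other immunity-related GTPases, was at 51.2, 56.7 and 74.2 CPM in FWT, 41.1, 36.1 and 49.7 CPM in MWT, 52.4, 64.2, 48.2, 45.6 and 40.8 CPM in FKO, and 44.1, 44.1, 28.8 and 25.2 CPM in MKO. It was called only in the average of both genotypes (0.51 ± 0.14, adjusted p = 0.0436), and that call was lost without any of 9 mice. *Ifi47*, the remaining GTPase, had an average difference of 0.06 ± 0.15 (adjusted p = 0.873).

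**Figure D3:**
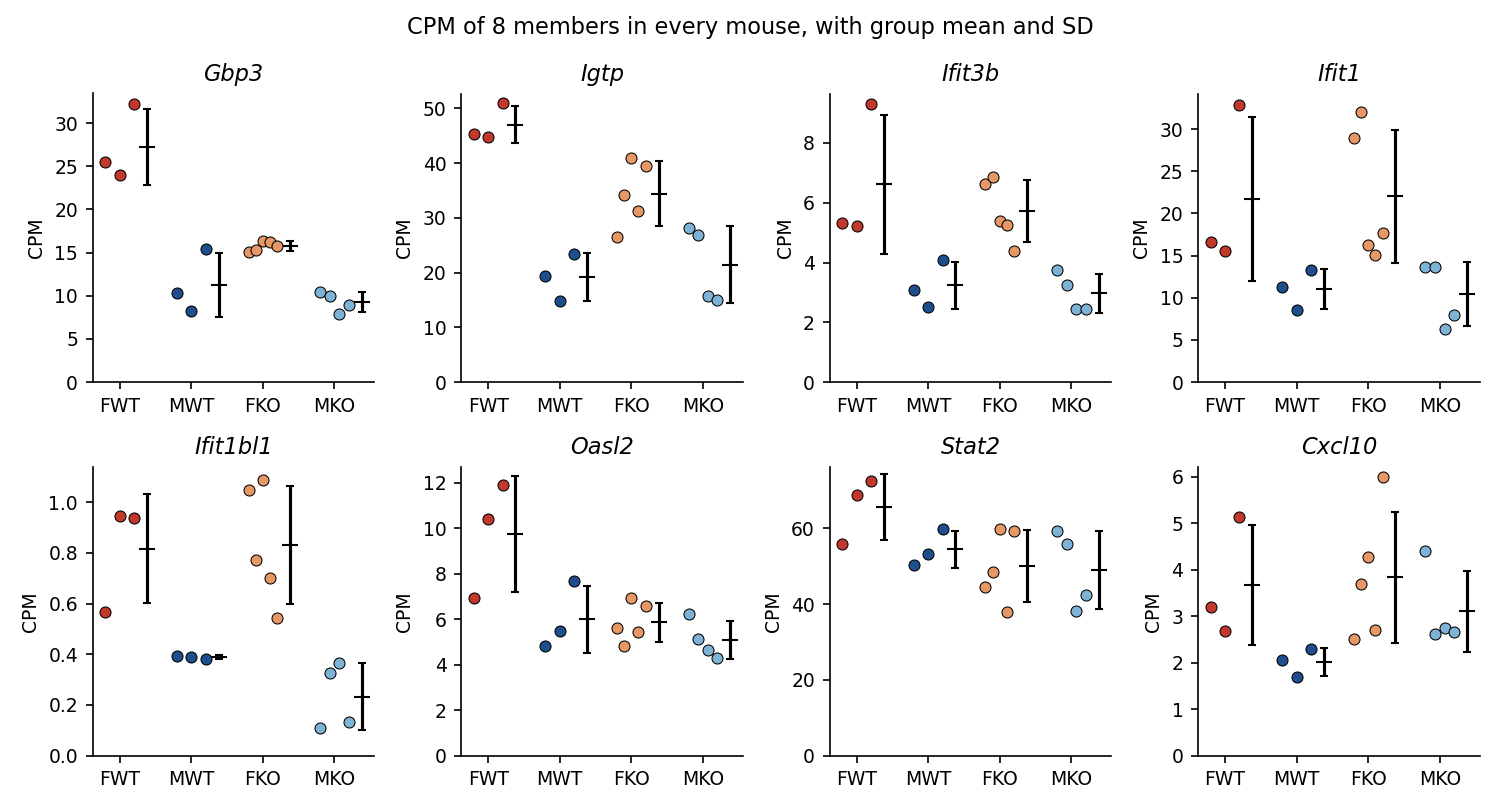
CPM of 8 members in every mouse, with the mean and SD of each group beside the points; each axis starts at 0. *Gbp3*, *Igtp*, *Ifit3b*, *Ifit1*, *Ifit1bl1* and *Cxcl10* separate FWT from MWT, *Gbp3*, *Ifit3b*, *Ifit1* and *Ifit1bl1* separate FKO from MKO, and *Stat2* overlaps between all groups.

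All 5 IFIT genes were called higher in females in the average of both genotypes, with a median log2 fold change of 0.99. IFIT proteins bind viral RNA and block its translation. *Ifit1* was at 16.6, 15.6 and 32.9 CPM in FWT, 11.3, 8.51 and 13.3 CPM in MWT, 29.0, 32, 16.3, 15.1 and 17.7 CPM in FKO, and 13.6, 13.7, 6.36 and 8.02 CPM in MKO. The lowest female was above the highest male, and FWT3, FKO1 and FKO2 were well above the other females. The average difference was 1.03 ± 0.23 (SE, log2; adjusted p = 0.0134), and 0.82 without FWT3, where the adjusted p of 0.0518 missed the threshold.

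*Ifit3b* was at 5.31, 5.23 and 9.30 CPM in FWT, 3.09, 2.52 and 4.09 CPM in MWT, 6.64, 6.87, 5.4, 5.25 and 4.39 CPM in FKO, and 3.76, 3.24, 2.44 and 2.43 CPM in MKO, with every female above every male. Its log2 fold change was 1.02 ± 0.25 (SE, adjusted p = 0.0239) in WT and 0.96 ± 0.21 (adjusted p = 0.067) in ESR1KO mice. The WT call was lost without FWT3, MWT1 or MWT2. *Ifit3* was at 19.4, 23.1 and 35.4 CPM in FWT, 13.5, 12.6 and 18.3 CPM in MWT, 27.2, 30.6, 21.1, 24.6 and 18.9 CPM in FKO, and 20.6, 16, 11.7 and 12.2 CPM in MKO, where within a genotype FKO5 and MKO1 crossed. The average difference was 0.75 ± 0.16 (adjusted p = 0.00907). The 2 genes share sequence, as given above, and are not independent observations. *Ifit2* was at 9.03, 10.5 and 16.4 CPM in FWT, 8.87, 6.99 and 10 CPM in MWT, 15.9, 17.3, 13.2, 14.1 and 10.3 CPM in FKO, and 8.67, 7.95, 7.42 and 8.66 CPM in MKO. Its groups overlapped in WT and were apart in ESR1KO mice (average 0.63 ± 0.14, adjusted p = 0.0107).

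*Ifit1bl1*, an *Ifit1*-like gene, had the largest log2 fold change of the members within ESR1KO mice and in the average of both genotypes, and the lowest level. Within WT mice *Igtp* and *Gbp3* had larger ones. It was at 0.568, 0.945 and 0.940 CPM in FWT, 0.395, 0.391 and 0.381 CPM in MWT, 1.05, 0.772, 1.09, 0.703 and 0.543 CPM in FKO, and 0.108, 0.327, 0.366 and 0.133 CPM in MKO. The lowest values, in MKO1 and MKO4, stood for 3 and 10 counts. Every female was above every male, and the log2 fold change was 1.78 ± 0.33 (SE, adjusted p = 0.0277) in ESR1KO and 1.06 ± 0.37 (adjusted p = 0.131) in WT mice. The ESR1KO call was lost without FKO1, FKO2, MKO1 or MKO4, and the gene did not pass a filter of 1 CPM in 3 libraries.

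Of the 12 other antiviral effectors, 6 were called higher in females in the average of both genotypes (*Ifi44*, *Rtp4*, *Trim30a*, *Xaf1*, *Rsad2* and *Mx1*). *Ifi44*, an interferon-induced protein with antiviral activity, was at 6.52, 10.3 and 12.6 CPM in FWT, 3.73, 4.18 and 6.55 CPM in MWT, 8.85, 8.47, 6.96, 7.01 and 5.61 CPM in FKO, and 5.67, 4.11, 3.24 and 3.58 CPM in MKO. FWT1 lay just below MWT3, and FKO5 just below MKO1. The WT difference was 1.01 ± 0.26 (SE, log2; adjusted p = 0.0332), which was lost without FWT2, FWT3, MWT1 or MWT2. *Rtp4*, a chaperone of membrane receptors, was at 13.1, 16 and 20.8 CPM in FWT, 12.3, 10.5 and 12.4 CPM in MWT, 15.1, 16, 15.8, 16.5 and 14.5 CPM in FKO, and 12.6, 12.4, 10.2 and 10.3 CPM in MKO. Every female was above every male by a small margin (average 0.48 ± 0.09, adjusted p = 0.00578). *Trim30a*, a regulator of NF-κB signaling, was at 14, 18.1 and 22.4 CPM in FWT, 11.6, 11.9 and 14.4 CPM in MWT, 21, 17.7, 14.9, 16 and 13.3 CPM in FKO, and 12.3, 10.6, 10.8 and 11.3 CPM in MKO. The sexes crossed only at FWT1 and MWT3 within WT mice (average 0.54 ± 0.11, adjusted p = 0.00794).

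*Xaf1*, *Rsad2* (viperin) and *Mx1* had average differences of 0.51 ± 0.13, 0.62 ± 0.16 and 0.62 ± 0.17 (SE, log2), with adjusted p of 0.0245, 0.034 and 0.0413, and each call was lost without FWT3 and without several other mice. The 6 effectors that did not pass were *Isg15*, the ubiquitin-like modifier (0.56 ± 0.22, adjusted p = 0.163), *Cmpk2* (0.51 ± 0.15, adjusted p = 0.0599), *Parp14* (0.27 ± 0.09), *Mx2* (0.20 ± 0.10), *Bst2* (0.14 ± 0.08) and *Ifi35* (0.14 ± 0.09). *Bst2*, which tethers budding virions to the cell, was at 74.2, 96.2 and 92.3 CPM in FWT, 84.4, 66.3 and 82.1 CPM in MWT, 78.1, 79.2, 82.0, 86.3 and 81.2 CPM in FKO, and 73.9, 83.6, 72.1 and 73.6 CPM in MKO. All groups overlapped, and the adjusted p was 0.32.

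Among the OAS genes, whose proteins make the 2-5A signal that activates RNase L or are relatives of those enzymes, 2 of 6 were called higher in females in the average of both genotypes. These were *Oas1a* (0.61 ± 0.16, adjusted p = 0.0301) and *Oas3* (0.68 ± 0.19, adjusted p = 0.0482), and the call of *Oas3* was lost when any of 12 single mice was left out. That of *Oas1a* was lost without FWT2, FWT3, MWT1, MWT2 or MKO3 (adjusted p up to 0.107). *Oas1g*, *Oas2* and *Oasl2* had differences of 0.54 ± 0.16, 0.49 ± 0.17 and 0.45 ± 0.14, with adjusted p of 0.0543, 0.0998 and 0.0651. *Oasl1*, the most abundant of the family and a translational inhibitor of *Irf7*, was at 10.2, 13.2 and 16.6 CPM in FWT, 13.3, 9.09 and 11.4 CPM in MWT, 7.96, 14, 14.7, 14.7 and 10.2 CPM in FKO, and 17.2, 17.5, 10.2 and 9.43 CPM in MKO. Its highest values were in MKO1 and MKO2, and all groups overlapped (average 0.05 ± 0.18, adjusted p = 0.897).

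Of the 4 RNA and DNA sensors, *Zbp1*, a sensor of Z-form nucleic acids that triggers cell death, was called higher in females in the average of both genotypes (0.68 ± 0.16, adjusted p = 0.0184). It was at 10.5, 7.88 and 10.2 CPM in FWT, 5.58, 4.16 and 9.05 CPM in MWT, 7.48, 6.34, 7.51, 7.87 and 7.17 CPM in FKO, and 4.77, 5.83, 3.52 and 3.18 CPM in MKO, with MWT3 among the females, and the call was lost without FWT3 or MWT1 (adjusted p up to 0.0605). *Ifih1*, which encodes the double-stranded RNA sensor MDA5, was the most abundant sensor by CPM, at 75.6, 77.2 and 94.7 in FWT, 79.5, 64.7 and 77.7 in MWT, 62.9, 68.7, 68.7, 71.8 and 60.5 in FKO, and 71.9, 67.2, 56.3 and 59.6 in MKO. The sexes overlapped in each genotype (average 0.11 ± 0.08, adjusted p = 0.467). *Ddx58* (RIG-I) and *Dhx58* (LGP2) had average differences of 0.25 ± 0.08 and 0.12 ± 0.10, with adjusted p of 0.0842 and 0.573.

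None of the 4 transcription factors and feedback genes was called for the average sex difference (0 of 4; median 0.34). *Stat2*, the STAT protein of the type I response, was at 55.8, 68.7 and 72.4 CPM in FWT, 50.3, 53.1 and 59.9 CPM in MWT, 44.5, 48.5, 59.8, 38 and 59.2 CPM in FKO, and 59.4, 55.8, 38.3 and 42.4 CPM in MKO. The groups overlapped, with a difference of 0.15 ± 0.12 (adjusted p = 0.512). *Irf9*, its DNA-binding partner, *Irf7*, the amplifier of type I interferon production, and *Usp18*, which removes ISG15 and restrains the receptor, had differences of 0.34 ± 0.10, 0.34 ± 0.11 and 0.35 ± 0.12, with adjusted p of 0.0547, 0.084 and 0.113. *Cxcl10*, the chemokine that attracts T cells through CXCR3, was at 3.20, 2.67 and 5.13 CPM in FWT, 2.05, 1.69 and 2.30 CPM in MWT, 2.50, 3.70, 4.27, 2.71 and 5.99 CPM in FKO, and 4.41, 2.61, 2.75 and 2.65 CPM in MKO. Every FWT mouse was above every MWT mouse, while FKO and MKO overlapped (average 0.59 ± 0.21, adjusted p = 0.105).

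The second question was whether the members differ between the genotypes. In females, 2 members were called lower in FKO than in FWT, *Gbp3* (−0.79 ± 0.16, SE, log2; adjusted p = 0.00656) and *Oasl2* (−0.73 ± 0.19, adjusted p = 0.0317), beside 2.57% of all genes; 2 of 37 members is a share of 5.41%. None was called higher (0 at an unadjusted p under 0.05 and 0 by DESeq2), beside 3.14% of all genes. Estimates were below 0 for all but 8 members, where 49.8% of all genes were above 0. The median log2 fold change of the members was −0.22, and −0.07 without FWT3. *Oasl2*, an OAS-like protein that the naming rule did not cover and that was named after its values were seen, was at 6.95, 10.4 and 11.9 CPM in FWT and at 5.62, 4.83, 6.93, 5.42 and 6.56 CPM in FKO, so that FKO3 lay just below FWT1. It was at 4.84, 5.50 and 7.66 CPM in MWT and at 6.25, 5.15, 4.65 and 4.30 CPM in MKO. Every FKO mouse was below every FWT mouse for 6 members (*Gbp3*, *Oasl2*, *Igtp*, *Zbp1*, *Ddx58* and *Ifih1*), beside 7.61% of all genes. Without FWT3 neither *Gbp3* (adjusted p = 0.0634) nor *Oasl2* (adjusted p = 0.19) was called, and the call of *Oasl2* was also lost without FWT2, FKO1, FKO2 or FKO4.

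In males, no member passed in either direction, beside 0.833% of all genes called higher and 0.583% called lower in MKO. By DESeq2 the counts were 0 as well, and at an unadjusted p under 0.05 4 members were lower, beside 4.71% of all genes, and 0 higher. The median log2 fold change was −0.17, and −0.03 without MWT3. Every MKO mouse was below every MWT mouse for 1 member, *Ifit1bl1* (beside 7.35% of all genes), and above for 1 member, *Cxcl10* (beside 8.56%), with log2 fold changes of −0.70 ± 0.39 (adjusted p = 0.532) and 0.60 ± 0.30 (adjusted p = 0.467). In the average of both sexes *Gbp3* was called lower in ESR1KO mice (−0.54 ± 0.12, adjusted p = 0.0147), beside 1.5% of all genes. No member was called higher (0 at an unadjusted p under 0.05 and 0 by DESeq2), beside 2.63%. DESeq2 called 7 members lower, beside 2.75% of all genes. *Gbp3* was not called without FWT3 (adjusted p = 0.0551). For the average of both sexes the IFIT genes had a median of −0.04 (from −0.34 for *Ifit1bl1* to 0.08) and the OAS genes a median of −0.44, with 0 of 5 and 0 of 6 called by edgeR.

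**Figure D4:**
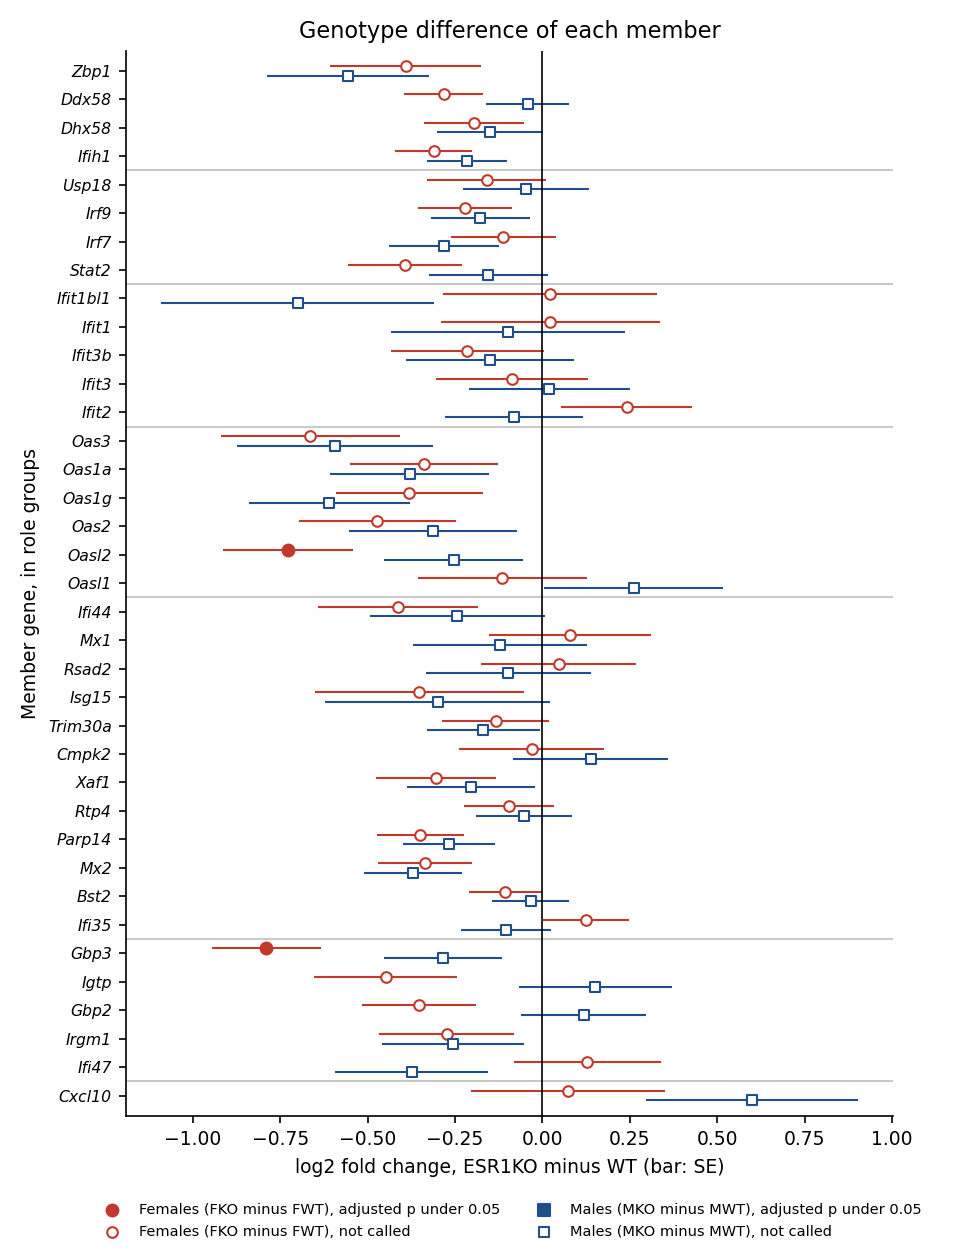
Log2 fold change of ESR1KO minus WT for each member, with its SE, in females (circles) and males (squares); filled symbols passed an adjusted p of 0.05. *Gbp3* and *Oasl2* in females are the only filled symbols among 37 members, and the OAS genes other than *Oasl1* lie left of 0 in both sexes.

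Whether the sex difference itself differed between the genotypes was tested by the interaction. No member was called, beside 1.02% of all genes called higher and 0.923% called lower; DESeq2 called 0, and at an unadjusted p under 0.05 there were 0 higher and 1 lower, beside 7.35% of all genes. That member was *Gbp3*, whose sex difference was smaller in ESR1KO mice by 0.50 on the log2 scale (−0.50 ± 0.23, adjusted p = 0.336). *Igtp* (−0.60 ± 0.30, adjusted p = 0.374) and *Gbp2* (−0.47 ± 0.24, adjusted p = 0.386) had estimates of the same sign. Therefore the members called in WT and not in ESR1KO mice were not shown to differ between the genotypes. The median interaction was −0.06, and −0.01 over all genes.

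The mice of a group were then compared with each other. As a summary per mouse, the median over the 37 members of log2 CPM minus the mean of the 15 mice was taken. It was 0.08, 0.28 and 0.71 in FWT1 to FWT3, and −0.21, −0.32 and 0.12 in MWT1 to MWT3. In FKO1 to FKO5 it was 0.09, 0.23, 0.18, 0.17 and 0.02, and in MKO1 to MKO4 −0.08, −0.15, −0.46 and −0.45. Females of a genotype were above its males with 1 exception, FWT1, which lay below MWT3. Over all genes tested the same summary stayed between −0.01 and 0.02. FWT3 was the highest WT female in 34 of 37 members, where it was so in 31.8% of all genes, and the highest of all 15 mice in 29, beside 7.05% of all genes. MWT3 was the highest WT male in 28 members, beside 33.7%. In MKO, MKO3 and MKO4 were the 2 lowest mice in 28 members, beside 20.8% of all genes. In FKO no mouse stood out, the highest mouse being FKO1 to FKO5 in 3, 12, 10, 8 and 4 members.

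**Figure D5:**
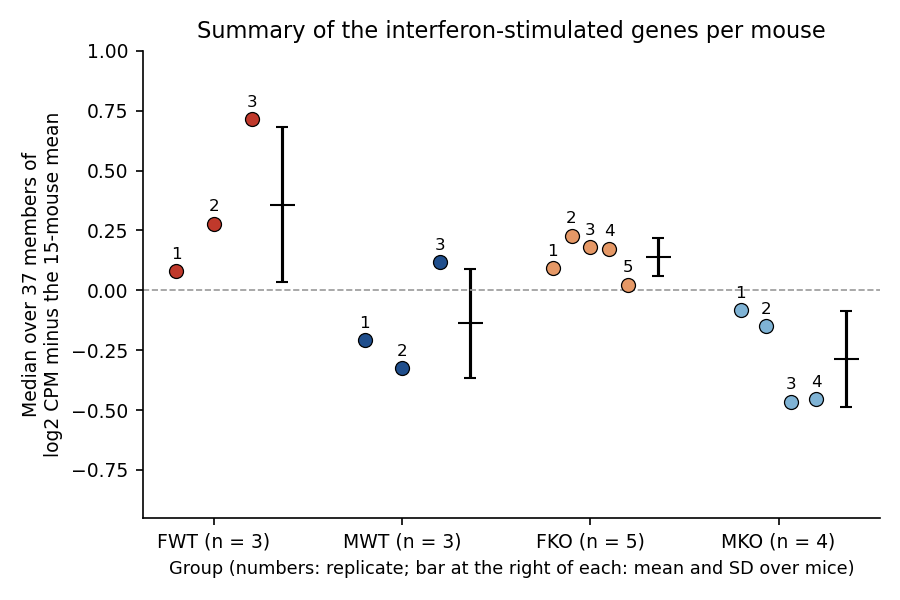
Each point is a mouse (number: its replicate number) and gives the median over the 37 members of log2 CPM minus the mean of the 15 mice; bars are the mean and SD of a group. FWT3 (0.71) lies highest, the 5 FKO mice lie between 0.02 and 0.23, and the MKO mice fall into a pair at −0.08 and −0.15 and a pair at −0.46 and −0.45.

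The spread in FWT came from every role. In FWT3 the median deviation was 0.88 for the IFIT genes, 0.88 for the OAS genes, 0.80 for the GTPases, 0.63 for the other effectors, 0.45 for the transcription factors and feedback genes, and 0.44 for the sensors. In FWT1 the GTPases were at 0.55 while the OAS genes were at 0.01 and the IFIT genes at 0.15. The IFIT genes were highest within FKO in FKO1 (0.62) and FKO2 (0.66), where the OAS genes were at 0.01 and −0.25.

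Upstream of the members, the interferon genes were near or at the limit of detection. Of 20 interferon ligand genes in the table, 14 had 0 counts in all 15 mice. The other 6 had 32 counts in all, of which 22 were of *Ifng*, and none could be tested. A count of 0 in bulk liver at this depth does not show that the gene is silent. Receptor subunits were expressed at similar levels in the groups. *Ifnar1* and *Ifnar2*, the type I receptor, had mean CPM of 46.2 and 38.8 in FWT, 46.0 and 39.8 in MWT, 42.7 and 36.3 in FKO, and 41.6 and 41.4 in MKO. *Ifngr1* and *Ifngr2*, the IFN-γ receptor, had average sex differences of 0.03 ± 0.07 and 0.03 ± 0.10 (SE, log2), and *Il10rb* 0.17 ± 0.08, with adjusted p of 0.858, 0.892 and 0.26. *Ifnlr1*, the specific subunit of the type III receptor, was at 0.0859 to 0.165 CPM in the group means and was not tested.

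Of the 26 receptor and signaling genes tested, 0 were called higher in females in the average of both genotypes and 1 lower, the repressor *Irf2* (−0.42 ± 0.11, adjusted p = 0.0282), a share near the 2.46% of all genes. In the average genotype effect 1 of 26 was called lower in ESR1KO mice, beside 1.5% of all genes. It was *Irf5* (−0.51 ± 0.10, adjusted p = 0.0106), a factor of Toll-like receptor signaling. *Irf2* was outside the naming rule and was named after its values were seen. Of 18 antigen presentation genes, 0 were called for any sex difference. *H2-Aa*, of MHC class II, was the 1 gene of these called higher in FKO than in FWT (0.69, adjusted p = 0.0162), beside 3.14% of all genes. It was also the 1 called higher in ESR1KO mice on average (0.57 ± 0.11, adjusted p = 0.00882), beside 2.63%. *Tap2*, the peptide transporter, also named after its values were seen, was the 1 called lower in FKO (−0.67, adjusted p = 0.045), beside 2.57% of all genes.

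Of 41 tested genes of a further list of interferon-inducible genes, 14 were called higher in females in the average of both genotypes, beside 3.28% of all genes, and 0 lower (median log2 fold change 0.36). In the other comparisons 0 or 1 gene of the list was called in a direction, and 1 of 41 is near the share of all genes given above for the sex difference in WT mice and for the female groups. *Gbp7*, a guanylate-binding protein, was at 42.6, 23.3, 31.2 and 20.2 CPM in the means of FWT, MWT, FKO and MKO, with an average difference of 0.75 ± 0.12 (SE, adjusted p = 0.000756), and it was the 1 gene of the list called within WT mice (0.87, adjusted p = 0.00754). *Gbp6* (0.75 ± 0.15, adjusted p = 0.00565) was the 1 gene called within ESR1KO mice (0.98, adjusted p = 0.0408). *Tgtp1*, a T-cell-specific GTPase, had the largest of the differences given here (1.01 ± 0.26, adjusted p = 0.0263), from means of 5.57 and 5.26 CPM in FWT and FKO and of 2.86 and 2.56 CPM in MWT and MKO. *Irgm2* (0.55 ± 0.14), the chemokine *Cxcl9* (0.60 ± 0.15), the RNA helicase *Ddx60* (0.57 ± 0.12), *Ifi27l2a* (0.54 ± 0.12), *Slfn5* (0.53 ± 0.12) and the DNA-binding *Ifi204* (0.39 ± 0.10) were called as well. *Pml*, the organizer of PML nuclear bodies, was the 1 gene of the list called between the female groups, lower in FKO (15.4 CPM) than in FWT (24.3 CPM; −0.66, adjusted p = 0.00582). *Ifi27*, named after its values were seen, was called lower in MKO (−0.54, adjusted p = 0.0486) and for the interaction (0.76, adjusted p = 0.0356).

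Markers of immune cells were read beside these results. The summed CPM of 6 Kupffer cell markers (*Clec4f*, *Vsig4*, *Adgre1*, *Cd5l*, *Timd4* and *Marco*) was 323 to 391 in FWT, 305 to 322 in MWT, 315 to 405 in FKO and 242 to 314 in MKO, so that females were above males in each genotype by 1 CPM at the closest mice. Of the 6, 4 were called higher in females in the average of both genotypes, beside 3.28% of all genes. Within ESR1KO mice 1 was called higher, beside 0.159%, and within WT mice 0, beside 2.67%. The median average difference of the 6 was 0.33 on the log2 scale. The 9 lymphocyte markers summed to 4.61, 6.43 and 7.68 CPM in FWT, 3.98, 3.25 and 6.53 CPM in MWT, 4.86 to 6.31 CPM in FKO and 3.85 to 6.04 CPM in MKO. None was called in any sex contrast, but their median sex difference was 0.51 in WT mice, 0.27 in ESR1KO mice and 0.43 on average. FWT3 and MWT3 were the highest of their groups, as for the members. In ESR1KO mice the opposite held: FKO5 (6.31 CPM) and MKO3 (6.04 CPM) were the highest of their groups. Their summaries over the members were the lowest of those groups (0.02 and −0.46). The Kupffer cell sum was the highest of its group in FWT3 (391 CPM) and MWT3 (322 CPM) and the lowest in MKO3 (242 CPM), as for the members. It went the other way in FKO2 (315 CPM), the lowest of its group but the highest over the members (0.23). In MKO4 (314 CPM) it was the highest of its group, where the summary over the members was −0.45. The 5 plasmacytoid dendritic cell markers summed to 67.8 to 97.6 CPM with 0 called. Nearly all of that sum was the member *Bst2* (group means of 75.8 to 87.6 CPM), so it says little about these cells. The next highest was *Siglech*, with means of 0.526 CPM in FWT, 0.894 in MWT, 0.744 in FKO and 0.835 in MKO. The 5 neutrophil and monocyte markers summed to 3.88 to 7.70 CPM with 0 called for sex. No marker of these lists was at 0 over the mice. The part of Kupffer cells and lymphocytes in the sex difference of the members was not tested.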

How the data were processed

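The authors deposited raw read counts per gene for 15 liver libraries. Per the labels and the study's methods, ribosomal RNA was depleted, reads were trimmed with Trimmomatic and aligned to GRCm38 with STAR, and genes were counted with HTSeq. The HTSeq version differs between these sources, and the annotation release, strand setting and treatment of multi-mapping reads are not given in the sources used here. Some libraries received a further sequencing run, and which ones is not stated.

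The counts were tested with edgeR 4.0.16 in R 4.3.3 (TMM, filterByExpr, quasi-likelihood F test, 1 mean per group over all 15 mice), and p-values were adjusted across all 17655 tested genes by the Benjamini-Hochberg method. The SE was the log2 fold change divided by the square root of F. The log2 CPM values used a prior count of 2. The fit was tested on simulated data. DESeq2 1.42.0, other scalings and filters, a fold threshold, a replicate block and leaving out each mouse were alternatives. The labels name separate mice as replicates. The members and lists were chosen with earlier results of these data known. Values in every mouse are given for members called in any comparison (at most 12, by smallest adjusted p) and for the most abundant member of each role. Of other pathway genes, called ones (at most 12), receptor subunits and *Esr1* are named. A gene that the rule also covers is not reported here. Positions are from GENCODE M21.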

Additional observations from a re-analysis of the deposited data

Results flagged for a closer look

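In 4 of 74 groups tested (5.41%), the highest or lowest mouse lay far from the others by Dixon's criterion, which chance alone gives in about 1 of 20 groups. *Oas3* was at 2.43 CPM in FKO2, where the other FKO mice were at 3.11 to 3.31 CPM. *Rsad2* was at 22.2 CPM in the same mouse, and at 16.7 to 17.9 CPM in the other FKO mice. *Bst2* was at 83.6 CPM in MKO2 and at 72.1 to 73.9 CPM in the other MKO mice. *Cxcl10* was at 4.41 CPM in MKO1 and at 2.61 to 2.75 CPM in the other MKO mice. Groups of 3 mice were not tested.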

How the results depend on the processing

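With an added log2 fold change of at least 1.5, the members called higher in females numbered 0 in WT mice, 1 in ESR1KO mice and 0 in the average of both genotypes, and those called lower in ESR1KO mice 0 in females and 0 in the average of both sexes. DESeq2 called 8 members higher in WT females, 13 in ESR1KO females and 7 lower in ESR1KO mice on average. For the ESR1KO sex difference (2 members), no filter gave 12, a filter of 1 CPM 0, only the groups compared 1 and the replicate block 1. For lower in ESR1KO females (2 members), only the groups compared gave 1. For lower in ESR1KO mice on average (1 member), scaling by total counts gave 2, no filter 3, the 1 CPM filter 3 and the replicate block 0. Leaving out each mouse gave 3 to 9 members (9 without FWT1 or MWT3) for the WT sex difference, 0 to 4 (4 without FWT3 or FKO5) for that of ESR1KO mice, 10 (without FWT3) to 23 (without FWT1) for the average, 0 (without FWT3) to 2 for lower in ESR1KO females, 0 (without FWT3) to 5 (without FWT1) for lower on average and 0 to 1 (without MWT3) for the interaction. The median log2 fold change ranged from 0.29 (without FWT3) to 0.70 (without MWT3) for the WT sex difference and from −0.19 to 0.15 for the interaction. Of the 18 members called in the average, 10 were called with each mouse left out. Of 595 values for called members under alternatives, 509 kept their call, 86 lost it and 0 reversed. Leaving out a mouse also left fewer samples in the fit, and the cause of the changes was not tested. Deviations of mice of the same replicate number had correlations from −0.195 to 0.14 over 19 pairs. For mice of different numbers they were from −0.166 to 0.219 over 64 pairs. This check cannot show whether a number stands for a shared litter or run, which the labels do not give. The deposited columns are sorted by name in separate sets. MWT3, FWT2, FWT3, MKO3 and MKO4 form 1 set, FKO5 stands alone at the end, and the other mice come first. FWT3, MWT3, MKO3 and MKO4, which stood out over the members, are thus in the same set. What the sets stand for is not given. Replicate numbers do not follow them, and a difference between the sets was not tested. Under the replicate block 4, 1 and 18 members were called higher in WT, ESR1KO and average females. Alternatives for single members were run only where the member was called.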
